A study of Mus musculus with 6 samples.

Results

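The mir-17-92 and mir-106b-25 clusters are related groups of microRNA (miRNA) precursors, and each group is cut from 1 long primary transcript. The entries described here were chosen by name. They were mir-17, mir-18a, mir-19a, mir-20a, mir-19b-1 and mir-92a-1 of mir-17-92, and mir-106b, mir-93 and mir-25 of mir-106b-25, which made 9 of the 1006 precursor entries of the count table. The rule used no measured value, and all 9 were counted in all 6 libraries, with between 11 and 22176 reads per library.

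As background, a miRNA is an RNA of little more than 20 bases that guides the silencing complex to messenger RNAs, mainly by pairing through its seed near the 5′ end, so that miRNAs with 1 seed are treated as a family with shared targets. The mir-17-92 cluster is transcribed under the control of Myc and E2f factors, promotes proliferation and survival, is amplified in lymphomas, and is needed for the development of the heart, lung, B cells and skeleton. The mir-106b-25 cluster lies within Mcm7, a subunit of the helicase that starts DNA replication, and repeats 2 of the seeds of mir-17-92. All mates of a cluster are cut from 1 primary transcript, but processing and decay of each mate can set its mature level apart from the others.

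Small RNA was sequenced in 4 conditions, with 2 libraries each for Myo-EVs and FFSS-Myo-EVs and 1 library each for primary osteoblasts (OB) and bone marrow cells (BM) of the mouse. Myo-EVs are extracellular vesicles (EVs) collected by ultracentrifugation from the medium of C2C12 cells, a myoblast line of mouse muscle, and FFSS-Myo-EVs are those of C2C12 cells under fluid flow shear stress (FFSS), a mechanical load that was applied on an orbital shaker. The study asked which miRNAs of Myo-EVs are raised by FFSS and abundant next to bone cells. No library of the C2C12 cells themselves was analysed here, so vesicles were compared with OB and BM and not with the cells that released them. For all 6 libraries, also those of the cell line, the labels name a mixed strain with C57BL/6J at 81.25% and the 129/SvJ strain at 18.75%, and they put the age of OB and BM at 8 to 10 weeks. The methods, however, take osteoblasts from the pooled calvariae of neonatal mice, cultured and passaged, and bone marrow cells, a mixture of many blood cell types, from the tibiae of a mouse of about the labelled age. The labels name the stress of OB, BM and Myo-EVs as control. Their growth protocol, the same for every library, has C2C12 cells kept for 48 hr and offers vitamin D or dexamethasone as an option, and no label says that any of these libraries was given either.

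The total count was between 2414132 and 3029524 in the 4 EV libraries, 5181296 in OB and 6092460 in BM, each from 90 ng of total RNA. Leukocyte markers (mir-142a, mir-150, mir-223, mir-342) summed to a normalized expression value of 27116 in BM, of 719.6 in OB and of 67.1 to 83 in the EV libraries. Mesenchymal markers (mir-143, mir-145a, the mir-199 entries and mir-214) summed to 536436 in OB, 22199.3 in BM and from 335112 to 437712 in the EVs. Most of this sum was mir-143, at 269506 in OB and from 274482 to 372549 in the EVs. The other entries went both ways. The mir-199 entries were from 66862 to 88096 in OB and from 8308.7 to 16349.7 in the EVs. Also lower in the EVs was mir-214 (4522.2 to 7087.9, against 8032.5 in OB), whereas mir-145a was higher (21558.8 to 25112.8, against 16583.5). Of the muscle markers, mir-206 was from 1968.5 to 2610 in the EVs, 91.7 in OB and 7.9 in BM. The mir-1a entries, markers of mature muscle, were instead highest in BM. There mir-1a-1 was at 30.6, against 2.8 in OB and 0 in all 4 EV libraries. Likewise mir-1a-2 was at 31.4 in BM and 6.1 in OB, and did not pass 6 in the EVs. The 3 mir-133 entries were between 4.4 and 45.2 in the EVs and did not pass 9.4 in OB or 1.2 in BM. Erythroid markers summed to 1923.2 in BM, to 65.8 in OB and to between 83.3 and 134.5 in the EVs. Most of the EV sum was mir-486a, with 76.3 to 110.2 per library, beside 64.1 for OB and 421.4 for BM. No EV library passed 7.8 for mir-144 or 25.9 for mir-451a. These 2 entries were at 116 and 1385.8 in BM, and at 0.6 and 1.1 in OB. The part of these differences in cell makeup in the values below was not tested. In bulk libraries, fewer cells of a type and less RNA per cell cannot be told apart.

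In the mouse genome GRCm38, the build that the submitters name as mm10, the 6 precursors of mir-17-92 lie within 836 bases at chr14:115043671-115044506 on the plus strand. They follow each other in the order mir-17, mir-18a, mir-19a, mir-20a, mir-19b-1 and mir-92a-1, and each lies inside an exon of the long non-coding RNA gene Mir17hg (chr14:115042879-115046727). The 3 precursors of mir-106b-25 lie within 498 bases at chr5:138165321-138165818 on the minus strand, in the order mir-106b, mir-93 and mir-25, inside the protein-coding gene Mcm7 (chr5:138164583-138172422). There, mir-106b is in an intron of 2 annotated transcripts, and mir-93 and mir-25 are in an intron of 2 transcripts and in an exon of 1 other.

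The mature sequences fall into 4 seed families and are shown because the comparisons below turn on mates that share a transcript but not a seed. The sequences are those of RefSeq for GRCm38.p6, 5′ to 3′, with the seed (bases 2 to 8) in capitals. The arm shown is the one usually described as the functional form. The count table does not list the 5p and 3p arms apart, so reads of the other arm can be part of each value. The family of seed AAAGUGC holds mir-17 and mir-20a of mir-17-92 together with mir-106b and mir-93 of mir-106b-25:
miR-17-5p: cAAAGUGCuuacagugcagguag
miR-20a-5p: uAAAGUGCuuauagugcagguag
miR-106b-5p: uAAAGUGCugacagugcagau
miR-93-5p: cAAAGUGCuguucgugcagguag
The related seed AAGGUGC is that of mir-18a:
miR-18a-5p: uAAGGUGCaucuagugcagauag
The seed GUGCAAA is that of mir-19a and mir-19b-1, which have no counterpart in mir-106b-25:
miR-19a-3p: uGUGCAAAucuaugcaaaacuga
miR-19b-3p: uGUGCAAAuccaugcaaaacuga
The seed AUUGCAC is that of mir-92a-1 and of mir-25:
miR-92a-3p: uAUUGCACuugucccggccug
miR-25-3p: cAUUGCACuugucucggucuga
Within these families miR-17-5p and miR-20a-5p differ at 2 of 23 positions, miR-19a-3p and miR-19b-3p at 1 of 23, and miR-92a-3p and miR-25-3p at 3 of the 21 positions they share. How the authors' matching divided reads of such close sequences is not given in the sources used here.

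The levels of the mates are normalized expression values, the authors' counts multiplied by 1 constant per library, which was 0.552 for OB, 0.397 for BM and from 0.996 to 1.20 for the EVs. Summed over its 6 mates, mir-17-92 was at 6430.4 in OB, 17102.7 in BM and 21313 ± 873 (SD, n = 4) in the EVs, so that the EV mean was 3.31 times the OB value and 1.25 times the BM value, the latter 1.03 with CPM scaling and 0.964 with TMM over the 6 libraries. Summed over its 3 mates, mir-106b-25 was at 7166.6 in OB, 10900.3 in BM and 8309 ± 652 (SD, n = 4) in the EVs, 0.762 times BM and 1.16 times OB, the latter 0.914 with median-of-ratios and 0.838 with TMM. The order of the clusters was thus turned between samples. The count of mir-17-92 divided by that of mir-106b-25, which no scaling between libraries can change, was 0.897 in OB, 1.57 in BM, 2.61 and 2.41 in Myo-EVs, then 2.58 and 2.69 in FFSS-Myo-EVs. Together the 9 entries took 0.475% of all counts in OB, 1.157% in BM and from 0.943% to 1.093% in the EVs. OB and BM have 1 library each, so none of the differences between cells and vesicles could be tested. Intervals given for single libraries are exact Clopper-Pearson 95% intervals that cover counting error only. The EV mean and SD over 4 libraries pool Myo-EVs and FFSS-Myo-EVs, so that SD also holds any difference between the 2 groups.

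**Figure D1:**
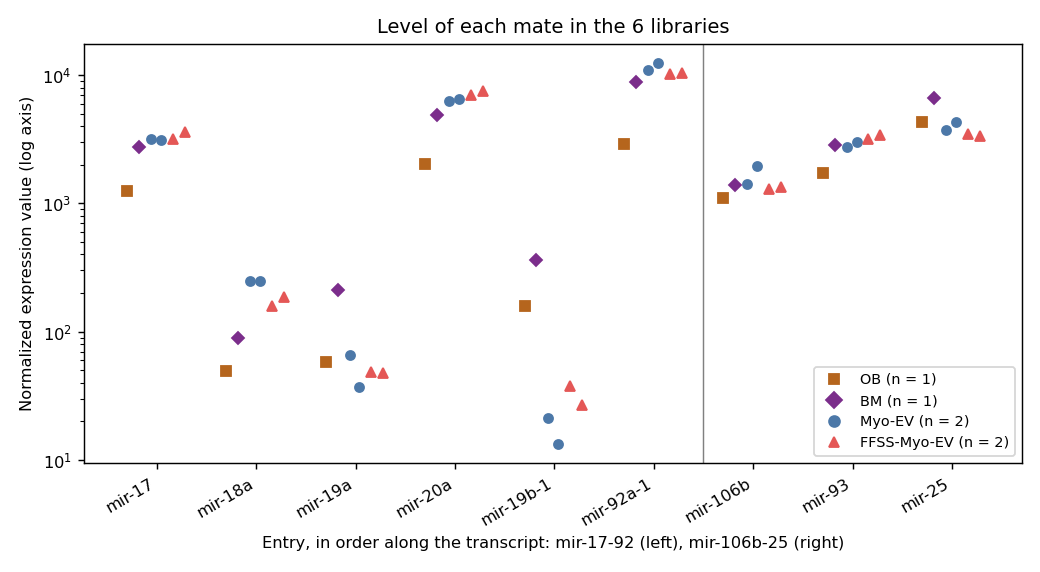
Normalized expression value (log axis) of each entry in the 6 libraries, in order along each transcript. Squares are OB (n = 1), diamonds BM (n = 1), circles Myo-EV (n = 2) and triangles FFSS-Myo-EV (n = 2). The EV points of mir-19b-1 sit between 13.2 and 37.9, below OB at 159.0 and BM at 365.0, while those of mir-92a-1 sit between 10117.4 and 12425.9, above both.

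The members with seed AAAGUGC, the miR-17 family proper, are known for targeting brakes of the cell cycle such as Cdkn1a and members of the Rb family. The most abundant of them, mir-20a, was at 2025.7 in OB, 4880.2 in BM, 6263.9 and 6474.6 in Myo-EVs, then 6978.4 and 7523.3 in FFSS-Myo-EVs. All 4 EV libraries were above both cell libraries, and the EV mean of 6810 ± 562 (SD, n = 4) was 3.36 times OB and 1.40 times BM. Its neighbour mir-17 was at 1247.5 in OB, 2749.3 in BM, 3160.0 and 3135.5 in Myo-EVs, then 3170.9 and 3611.6 in FFSS-Myo-EVs. The EV mean of mir-17 was 2.62 times OB and 1.19 times BM, but the latter was 0.981 times BM with CPM scaling and 0.918 times BM with TMM over the 6 libraries. In mir-106b-25, mir-93 was at 1734.6 in OB, 2857.7 in BM, 2753.5 and 3031.3 in Myo-EVs, then 3188.8 and 3400.1 in FFSS-Myo-EVs, where the EV range holds the BM value. The last of the family, mir-106b, was at 1094.6 in OB, 1401.7 in BM, 1424.4 and 1947.4 in Myo-EVs, then 1298.1 and 1349.0 in FFSS-Myo-EVs, which again lie on both sides of BM. The EV mean of mir-93 was 1.78 times OB and 1.08 times BM, the latter between 0.835 and 0.992 with the 3 other scalings. The EV mean of mir-106b was 1.37 times OB, or 0.996 times with TMM, and 1.07 times BM, the latter between 0.833 and 0.990 with the 3 other scalings.

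The mate mir-18a, whose known targets include Ctgf, was the least abundant entry in both cell libraries and ranked above both miR-19 entries in every EV library. It was at 49.2 in OB (exact interval 39.5 to 60.5), 89.8 in BM (78.4 to 102), 250.0 and 246.7 in Myo-EVs, then 158.4 and 185.0 in FFSS-Myo-EVs. All 4 EV libraries were above both cell libraries, and the EV mean of 210 ± 45.6 (SD, n = 4) was 4.27 times OB and 2.34 times BM. This was the only member whose EV mean was at least 2 times that of BM. Of the 443 entries with a mean of at least 10 over the 6 libraries, 35.9% were. The ratio of mir-18a to BM was, however, 1.94 with CPM scaling and 1.83 with TMM, so that no member passed 2 there. On the deposited scale its Myo-EV mean of 248 ± 2.33 was more than 2 times BM, but its FFSS-Myo-EV mean of 172 ± 18.8 was less (SD, n = 2 each).

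The pair with seed GUGCAAA, known as the component of mir-17-92 that carries much of its activity in lymphoma, had the lowest EV levels of all members. The level of mir-19b-1 was 159.0 in OB (288 reads), 365.0 in BM (919 reads), 21.1 and 13.2 in Myo-EVs (21 and 11 reads), and 37.9 and 26.6 in FFSS-Myo-EVs (38 and 24 reads). Each EV value was below both cell values with exact intervals that did not overlap them, and the EV mean of 24.7 ± 10.4 (SD, n = 4) was 0.155 times OB and 0.0677 times BM. Its relative mir-19a was at 58.0 in OB, 210.5 in BM, 65.2 and 37.1 in Myo-EVs, then 48.8 and 47.6 in FFSS-Myo-EVs. The EV mean of mir-19a was 0.236 times BM, whereas the EV values lay on both sides of OB with a mean of 0.856 times OB. With median-of-ratios or TMM scaling over the 6 libraries, all 4 EV values of mir-19a were below both cells. The count of mir-19a divided by that of mir-19b-1 was 0.365 in OB and 0.577 in BM but from 1.29 to 3.10 in the EVs. With the reads of the second genomic copy, mir-19b-2, added to those of mir-19b-1, it was 0.194 in OB, 0.290 in BM, 1.51 and 1.29 in Myo-EVs, then 0.636 and 0.827 in FFSS-Myo-EVs, so whether miR-19a or miR-19b was listed higher in FFSS-Myo-EVs depended on how the copies are counted.

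The pair with seed AUUGCAC, whose members are known to act on integrin alpha 5 and on the pro-apoptotic factor Bim, split between the clusters. The entry mir-92a-1 was the most abundant member in BM and in every EV library, at 2891.0 in OB, 8807.9 in BM, 10904.6 and 12425.9 in Myo-EVs, then 10117.4 and 10348.6 in FFSS-Myo-EVs. Its EV mean of 10949 ± 1038 (SD, n = 4) was 3.79 times OB and 1.24 times BM, the latter 1.03 with CPM scaling and 0.964 with TMM scaling. The entry mir-25 was the most abundant member in OB and was lower in all 4 EV libraries than in both cells, at 4337.4 in OB, 6640.9 in BM, 3735.2 and 4302.1 in Myo-EVs, then 3474.8 and 3332.5 in FFSS-Myo-EVs. The second Myo-EV library and OB were close, with overlapping exact intervals of 4163 to 4445 and 4242 to 4434. The count of mir-92a-1 divided by that of mir-25 was 0.667 in OB, 1.33 in BM and from 2.89 to 3.11 in the EVs.

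Counted over the members, 4 of 9 (mir-17, mir-18a, mir-20a and mir-92a-1) had all 4 EV values above both cell libraries, against 35.2% of the 443 entries, and 2 of 9 (mir-19b-1 and mir-25) had all 4 below, against 28.9%. With other scalings the first number was between 2 and 3 and the second between 2 and 3, of which mir-18a and mir-20a above and mir-19b-1 and mir-25 below were shared by all 4 scalings. These scalings moved the median EV to BM ratio of all entries by between -0.12 and -0.36 on the log2 scale, and the median EV to OB ratio by between -0.03 and -0.47, relative to the deposited values. The EV mean was at least 2 times that of OB for 4 of 9 members, against 35.4% of all entries, and at least 2 times below it for 1 member, mir-19b-1, against 36.3%. Below BM by the same factor were 2 members, both of seed GUGCAAA, against 42.7%. These counts are on the deposited scale. The EV to BM ratio of mir-25 was 0.559, but 0.462 with CPM and 0.434 with TMM, so that it passed there as well. The EV to OB ratio of mir-17 was 1.89 with TMM, so that it did not pass there. The 2-fold shares of all entries were not counted with these scalings. The median ratio over the 9 members was 1.08 for EVs to BM and 1.78 for EVs to OB, where that of all 443 entries was 0.966 and 0.999. The counts above OB and above both cells were near the background.

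**Figure D2:**
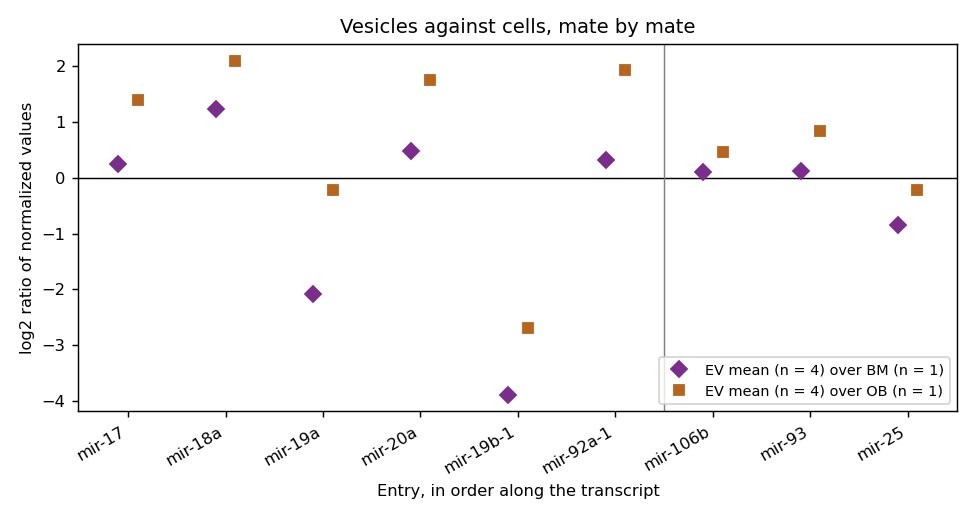
Log2 ratio of the EV mean (n = 4 libraries) to BM (diamonds, n = 1) and to OB (squares, n = 1) for each entry, from the deposited normalized expression values. Both points of mir-19b-1 and the BM point of mir-19a lie far below 0, the points of mir-18a lie highest, and both points of mir-25 lie below 0.

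BM was at least 2 times above OB for 5 of 9 members (mir-17, mir-19a, mir-20a, mir-19b-1 and mir-92a-1), all of mir-17-92, against 26.4% of the 443 entries. This count is on the deposited scale and was not taken with other scalings. Several ratios lay near the threshold, with 2.20 for mir-17, 2.30 for mir-19b-1 and 1.83 for mir-18a, so the count can move with the scaling. The highest BM to OB ratio was 3.63 for mir-19a and the lowest was 1.28 for mir-106b. The median over the members was 2.20, beside 1.08 over all entries. The leukocyte markers moved the same way between these 2 libraries, as given above, and their part in the difference was not tested.

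The order of the levels differed between conditions. In OB it was mir-25, mir-92a-1, mir-20a, mir-93, mir-17, mir-106b, mir-19b-1, mir-19a and mir-18a, and the exact intervals of the last 2 overlapped. In BM, mir-92a-1 stood before mir-25, mir-93 and mir-17 overlapped, and the last 3 places were again mir-19b-1, mir-19a and mir-18a. In Myo-EVs it was mir-92a-1, mir-20a, mir-25, mir-17, mir-93, mir-106b, mir-18a, mir-19a and mir-19b-1, and no neighbours in this order overlapped in their 2 libraries. In FFSS-Myo-EVs the order of the means was the same, but mir-25, mir-17 and mir-93 overlapped. The mature reference forms have 21 to 23 bases, and how well each sequence is captured in a library was not measured.

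Proportions of mates were taken as the share of each entry in the summed counts of its cluster, a value that does not depend on the scaling between libraries. In mir-17-92, the miR-19 mates took a far smaller share in the EV libraries than in either kind of cell, while the shares of the abundant mates differed little. Together mir-19a and mir-19b-1 made up 3.38% of the cluster in OB and 3.37% in BM, but 0.352% ± 0.092 (SD, n = 4) in the EVs, with a range from 0.225% to 0.423%. The cell shares were 9.60 and 9.57 times the EV mean for OB and BM, and the 2 kinds of cells, which differ in the level of the cluster, thus had nearly the same share.

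The share of mir-19b-1 was 2.47% in OB (exact interval 2.20% to 2.77%) and 2.13% in BM (2.00% to 2.28%). It was 0.102% and 0.0590% in Myo-EVs, then 0.185% and 0.122% in FFSS-Myo-EVs, where the highest upper limit was 0.253%. The OB share was 21.1 times the EV mean and the BM share 18.2 times. The share of mir-19a was 0.902% in OB (0.738% to 1.09%) and 1.23% in BM (1.13% to 1.34%), and it was 0.316% and 0.166% in Myo-EVs, with 0.238% and 0.219% in FFSS-Myo-EVs. These cell shares were 3.84 and 5.24 times the EV mean. The miR-19 entries were the only 2 of the 9 whose share was at least 2 times lower in EVs than in both cells, and 0 of 9 had a share at least 2 times higher. Adding the second genomic copies, leaving out the most abundant mate or leaving out any 1 EV library gave the same 2 and 0. Shares were not counted over other clusters, so these numbers have no background of their own kind. By level, a different measure, 25.5% of the 443 entries had an EV mean at least 2 times below both cells. By that measure mir-19b-1 passed and mir-19a did not.

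The other shares of mir-17-92 differed less. The share of mir-92a-1 was 45.0% in OB, 51.5% in BM, 52.8% and 55.6% in Myo-EVs, then 49.3% and 47.6% in FFSS-Myo-EVs, so that the EV libraries lay around the BM value. That of mir-20a was 31.5% in OB, 28.5% in BM, 30.3% and 29.0% in Myo-EVs, then 34.0% and 34.6% in FFSS-Myo-EVs. The share of mir-17 was 19.4% in OB, 16.1% in BM, 15.3% and 14.0% in Myo-EVs, then 15.5% and 16.6% in FFSS-Myo-EVs. Although mir-17 and mir-20a share a seed, the count of mir-20a divided by that of mir-17 was 1.62 in OB, 1.78 in BM and from 1.98 to 2.20 in the EVs. The share of mir-18a was 0.764% in OB, 0.525% in BM, 1.21% and 1.10% in Myo-EVs, then 0.772% and 0.851% in FFSS-Myo-EVs. All 4 EV shares of mir-18a were above both cells, but those of FFSS-Myo-EVs could not be told from OB within the exact intervals (0.614% to 0.940% in OB).

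**Figure D3:**
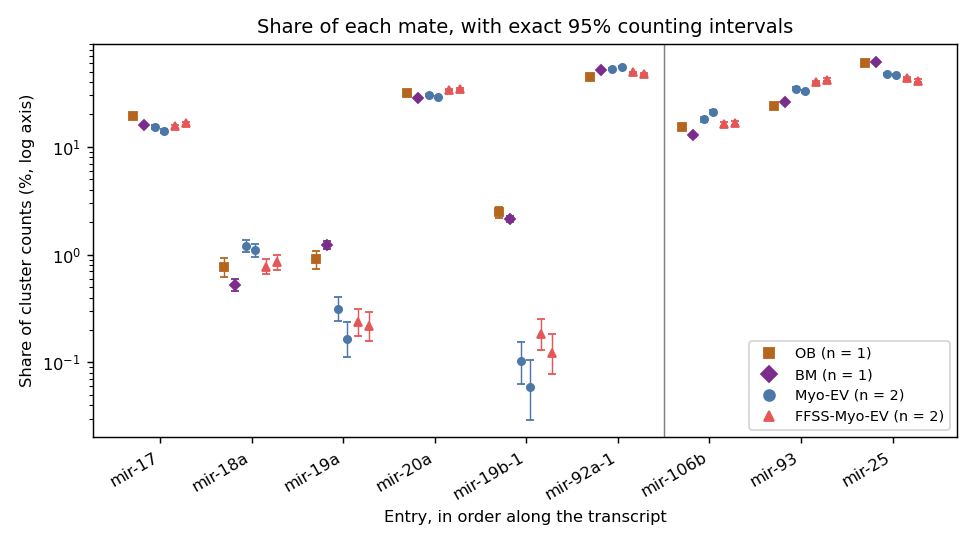
Share of each entry in the summed counts of its cluster (%, log axis) in the 6 libraries, with exact Clopper-Pearson 95% intervals as error bars, which cover counting error only. Squares are OB, diamonds BM, circles Myo-EV and triangles FFSS-Myo-EV. The EV shares of mir-19a and mir-19b-1 lie below those of both cells, with a gap that the intervals do not bridge.

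In mir-106b-25 the balance between mir-25 and the mates of seed AAAGUGC differed between cells and vesicles. The share of mir-25 was 60.5% in OB (59.7% to 61.4%) and 60.9% in BM (60.3% to 61.5%), against 47.2% and 46.4% in Myo-EVs, with 43.6% and 41.2% in FFSS-Myo-EVs, all below both cells. The share of mir-93 was 24.2% in OB, 26.2% in BM, 34.8% and 32.7% in Myo-EVs, then 40.1% and 42.1% in FFSS-Myo-EVs, all above both cells. The share of mir-106b was 15.3% in OB, 12.9% in BM, 18% and 21.0% in Myo-EVs, then 16.3% and 16.7% in FFSS-Myo-EVs, also above both cells. With mir-25 left out of the sum, the EV mean share was 0.992 times BM and 0.844 times OB for mir-106b, and 1.00 times BM and 1.10 times OB for mir-93, where the shares of the 2 remaining mates must sum to 100%. The count of mir-25 divided by that of mir-93 was 2.50 in OB, 2.32 in BM, 1.36 and 1.42 in Myo-EVs, then 1.09 and 0.980 in FFSS-Myo-EVs.

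**Figure D4:**
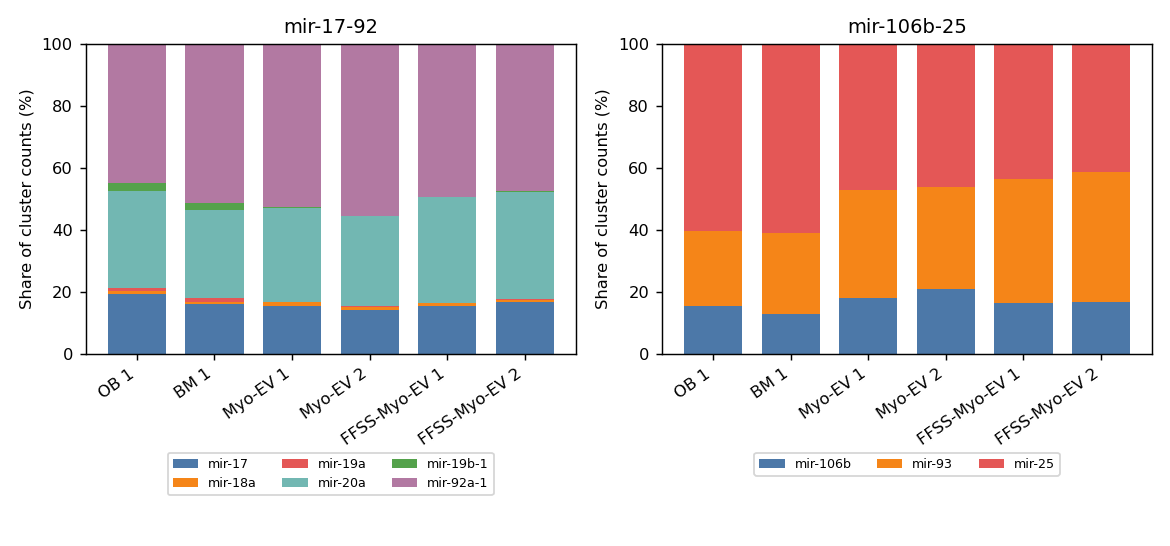
Shares of the mates (%, stacked to 100) in the counts of mir-17-92 (left) and mir-106b-25 (right), 1 bar per library. The bands of mir-19a and mir-19b-1 are visible in the OB and BM bars and thin to a line in the EV bars, and the mir-25 band is 60.5% and 60.9% of the cell bars and from 41.2% to 47.2% of the EV bars.

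The spread between mates was set beside that of other groups of neighbours. Among entries whose mean was 100 or more, 12 groups of at least 3 were found in which each precursor lies within 10 kb of the next on 1 strand. In mir-17-92, of which mir-19a fell under that mean, the highest and the lowest log2 ratio among the mates were 5.05 apart for EVs to BM and 4.71 apart for EVs to OB. These ranges rested on mir-19b-1, which passed the mean only through its levels in OB and BM, and without it, an alternative added after the values were seen, they were 0.967 and 0.682. In mir-106b-25 the ranges were 0.954 and 1.06, and the median of the other 10 groups was 2.48 for BM and 3.27 for OB. With mir-19b-1, mir-17-92 took rank 2 of 12 for BM and rank 4 of 12 for OB. The widest ranges, 5.54 for BM and 7.08 for OB, were in other groups. All these ranges come from log2 ratios with a pseudocount of 1 added to the EV mean and to the cell level. For an entry near 0 in a cell library, the pseudocount can set the ratio. Its part in the ranges of the other groups was not tested, so the ranks do not settle whether a wide range is particular to mir-17-92. The GC content of the mature form, which is 34.8% for mir-19a, 39.1% for mir-19b-1 and mir-20a and 57.1% for mir-92a-1, had a Spearman's rho of 0.34 with the EV to BM ratio and 0.35 with the EV to OB ratio over the 9 members, a description over few points that share their libraries. Over 217 entries, the GC content of the hairpin had a rho of -0.04 and -0.01 with the same ratios.

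The comparison of FFSS-Myo-EVs with Myo-EVs asks whether the vesicle load of these miRNAs differs under FFSS. The counts of the 4 EV libraries were scaled by TMM, 354 entries were tested in edgeR by the quasi-likelihood method, and p-values were adjusted over all of them (Benjamini-Hochberg). Nothing in the labels says that the 2 libraries of a group came from separate cultures, so the p-values rest on no more than the spread between these libraries. The prior degrees of freedom of the fit were infinite. The spread was thus pooled over all entries, and the p-value of an entry does not weigh its own spread between libraries. Of the 9 members, 3 were called lower in FFSS-Myo-EVs (mir-18a, mir-106b and mir-25) and 0 higher, against 18.4% of all entries called lower and 12.1% called higher, 30.5% in either direction. At an unadjusted p under 0.05 there were 4 members, the fourth being mir-92a-1, against 39% of all entries. The median log2 fold change was -0.23 over the members and -0.02 over all 354 entries. The counts in either direction, adjusted and unadjusted, were near the background. The split into 3 lower and 0 higher was not tested against it, and 9 members are few for such a comparison. Of the marker entries tested in the same fit, all 3 mir-133 entries were called lower (log2 fold change from -1.49 to -1.92) and mir-206 was not (0.15). Of 2 erythroid entries, mir-451a was called higher (2.36) on levels of no more than 25.9, and mir-486a was not called (-0.04). Of 6 mesenchymal entries, 1 was called, mir-199b, which was higher (0.46). Not called were both mir-199a entries (0.33 each), mir-143 (-0.13), mir-145a (-0.24) and mir-214 (-0.07). The leukocyte entry mir-342 was not called (-0.20). The part of these differences in the members' values was not tested.

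The counts behind the calls were as follows. Reads of mir-18a were 249 and 206 in Myo-EVs, against 159 and 167 in FFSS-Myo-EVs, and its log2 fold change was -0.66 (SE 0.20), with an adjusted p of 0.00539 by edgeR's quasi-likelihood test. Reads of mir-106b were 1419 and 1626 in Myo-EVs, against 1303 and 1218 in FFSS-Myo-EVs, with a log2 fold change of -0.46 (SE 0.13) and an adjusted p of 0.00173 by the same edgeR test. Reads of mir-25 were 3721 and 3592 in Myo-EVs, against 3488 and 3009 in FFSS-Myo-EVs, with a log2 fold change of -0.36 (SE 0.13) and an adjusted p of 0.0229 by edgeR. In all 3, both FFSS-Myo-EV libraries were below both Myo-EV libraries in the normalized expression value and on the TMM scale. Without FFSS-Myo-EV library 1 or library 2, which leaves a group of 1 library that is assumed to vary like the Myo-EV libraries, the log2 fold change was -0.60 and -0.70 for mir-18a, -0.49 and -0.42 for mir-106b, and -0.44 and -0.25 for mir-25, respectively. None of the 3 passed in these smaller fits, in which 44 and 45 entries were called against 108, and edgeR's adjusted p was 0.216 and 0.152 for mir-18a, 0.0792 and 0.242 for mir-106b, and 0.134 and 0.578 for mir-25 in the same order. Without the second Myo-EV library, which had the highest mir-106b level of all 6, the adjusted p of mir-106b was 0.106 and its log2 fold change -0.19. Limma on log2 values of the deposited scale with a pseudocount of 1 called none of the 3, with adjusted p of 0.0534, 0.0874 and 0.211 for mir-18a, mir-106b and mir-25. In edgeR, mir-25 was not called with library totals (adjusted p of 0.137), the deposited scaling (0.214) or 1 entry per miRNA name (0.0825), nor mir-106b with the deposited scaling (0.0661).

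The other 6 members did not pass the adjusted threshold with all 4 libraries. The most abundant, mir-92a-1, had a log2 fold change of -0.31 (SE 0.15) and an adjusted p of 0.0971 by edgeR, with both FFSS-Myo-EV libraries below both Myo-EV libraries. It passed only without the first Myo-EV library, with an adjusted p of 0.0204. The log2 fold change of mir-19b-1 was 0.77 (SE 0.39) with an adjusted p of 0.131, and it passed only without the first Myo-EV library, with a log2 fold change of 1.23 and an adjusted p of 0.0402, on counts between 11 and 38. For mir-17, mir-20a and mir-93 the log2 fold change was -0.02, 0.06 and 0.06, with approximate 95% intervals from -0.27 to 0.23, from -0.21 to 0.33 and from -0.18 to 0.31. The sign of the mir-17 value was turned by other scalings, with 0.11 on the deposited scale. For mir-19a the log2 fold change was -0.23 with an interval from -0.89 to 0.43, which leaves a change of either sign within the precision of 31 to 65 reads.

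**Figure D5:**
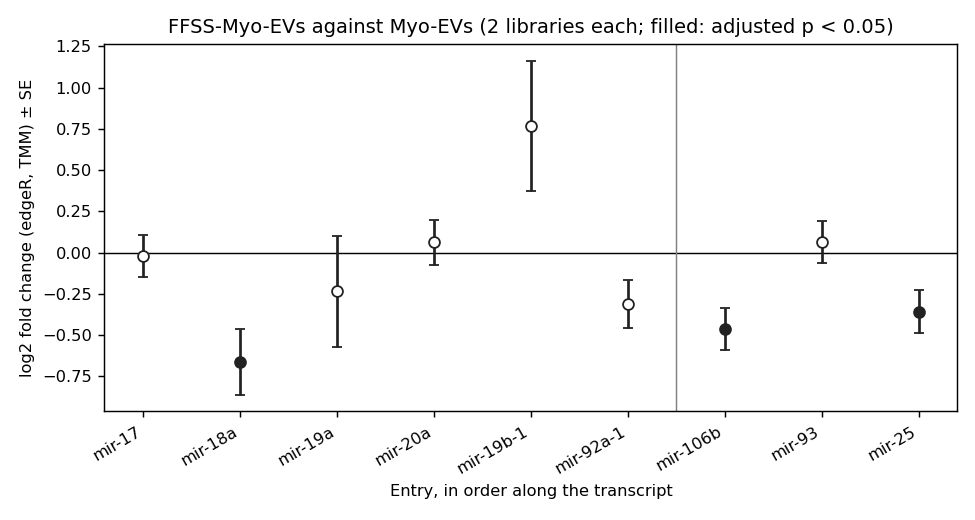
Log2 fold change of FFSS-Myo-EVs against Myo-EVs (2 libraries each) by edgeR with TMM, with the standard error as bars. Filled points passed an adjusted p of 0.05, which were mir-18a, mir-106b and mir-25, all below 0, and open points did not.

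By family, the 4 members of seed AAAGUGC had log2 fold changes from -0.46 to 0.06 and the 2 members of seed AUUGCAC had -0.31 and -0.36. Summed normalized expression values of the AUUGCAC members were 15684 ± 1477 in Myo-EVs and 13637 ± 62.9 in FFSS-Myo-EVs, and those of the AAAGUGC members were 14095 ± 698 and 15260 ± 882 (SD, n = 2 each). On the TMM scale of the test, the AUUGCAC sum was 5572 ± 208 CPM in Myo-EVs and 4457 ± 205 in FFSS-Myo-EVs, whereas the AAAGUGC sum was 5014 ± 37.3 and 4980 ± 36.2 (SD, n = 2 each) and the groups overlapped. The whole of mir-17-92 was at 21499 ± 1180 in Myo-EVs and 21127 ± 870 in FFSS-Myo-EVs, and the whole of mir-106b-25 was at 8597 ± 967 and 8022 ± 84.8 (SD, n = 2 each), differences smaller than the spread of the Myo-EV libraries on this deposited scale. On the TMM scale they were larger than that spread and the groups did not overlap, with 7646 ± 16 CPM against 6898 ± 64.7 for mir-17-92 and 3052 ± 170 against 2621 ± 105 for mir-106b-25 (SD, n = 2 each). In the deposited values, the groups did not overlap for 8 of 9 members, against 60.5% of the 354 entries, with FFSS-Myo-EVs above for 4 (36.7% of all entries) and below for 4 (23.7%). On the TMM scale it was 7 of 9, against 58.5%, with 3 above (26%) and 4 below (32.5%). The deposited scaling raised the median FFSS-Myo-EV to Myo-EV ratio of all entries by 0.12 on the log2 scale over that with TMM.

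The proportions of mates in Myo-EVs and FFSS-Myo-EVs were set side by side. The share of mir-25 in mir-106b-25 was 46.8% ± 0.600 in Myo-EVs and 42.4% ± 1.70 in FFSS-Myo-EVs, and that of mir-93 was 33.7% ± 1.51 and 41.1% ± 1.43 (SD, n = 2 each). In mir-17-92, the share of mir-92a-1 was 54.2% ± 2.03 in Myo-EVs and 48.5% ± 1.22 in FFSS-Myo-EVs, and that of mir-20a was 29.7% ± 0.934 and 34.3% ± 0.410 (SD, n = 2 each). The groups did not overlap in these 4 shares, nor in 8 of the 9 shares in all, beside 60.5% of entries for the deposited levels, but an exact permutation test of 2 against 2 libraries cannot give a two-sided p below 0.333, so no share was tested. The joint share of the miR-19 entries, 0.321% ± 0.136 in Myo-EVs and 0.382% ± 0.057 in FFSS-Myo-EVs (SD, n = 2 each), overlapped between the groups.

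The third paralogous cluster, mir-106a-363, lies within 875 bases at chrX:52741693-52742567 on the minus strand and holds second copies of 2 members. Its mir-19b-2 and mir-92a-2 give the same mature sequences as mir-19b-1 and mir-92a-1, so reads of the mature form alone cannot be assigned to a copy and the 4 entries are uncertain as separate values. The longest stretch shared by the precursors is 25 bases for the mir-19b copies and 22 bases for the mir-92a copies. The copies of mir-19b were listed with nearly equal counts (253 for mir-19b-2 in OB and 910 in BM, and from 13 to 39 in the EVs), a ratio of mir-19b-1 to mir-19b-2 from 0.846 to 1.14 over the 6 libraries. The copies of mir-92a were listed unequally, with mir-92a-1 from 9.80 to 11.3 times mir-92a-2. The entries that can be told apart from a member by their mature sequence were rare. The level of mir-106a, which differs from mir-17 at 1 of 23 positions, was 5.5 in OB, 22.6 in BM and from 12 to 16.6 in the EVs, and that of mir-20b was 4.4, 27.0 and from 10.0 to 13.3. For mir-18b there were between 0 and 5 reads per library. The entry mir-363 had 71 reads in BM, a level of 28.2, and 0 in the other 5 libraries, where a count of 0 was taken to allow up to 3 reads, a level of 1.66 in OB and of no more than 3.59 in the EVs. In the FFSS comparison 4 of these 6 entries could be tested, and edgeR called 0 at an adjusted p of 0.05 and 1 (mir-92a-2) at an unadjusted p under 0.05.

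Outside these clusters, mir-32 and mir-92b were the only other entries with a member's seed among those matched, both with AUUGCAC. The level of mir-32 was 99.4 in OB, 173.2 in BM and from 44.3 to 130.5 in the EVs, and that of mir-92b was 79.0, 27.0 and from 81.7 to 113.0. Neither was called under FFSS, with log2 fold changes of -0.56 (adjusted p of 0.141) and 0.01 (adjusted p of 0.984) by edgeR.

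The entries whose profile over the 6 libraries was most like that of a cluster were found by the root mean square difference of centred log2 values among the 238 entries whose mean was 100 or more. For the sum of mir-17-92 these were mir-92a-2 with 0.092, whose reads may belong to mir-92a-1, mir-186 with 0.125 and mir-30c-2 with 0.141. For the sum of mir-106b-25 they were mir-484 with 0.114, mir-130b with 0.131 and mir-30f with 0.173. The sums of the 2 clusters were 0.577 apart.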

How the data were processed

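Small RNA libraries of OB (n = 1), BM (n = 1), Myo-EVs (n = 2) and FFSS-Myo-EVs (n = 2) were analysed from 1 table of 1006 miRBase precursor entries. The authors grouped reads by sequence, matched them to miRBase with CLC Genomics Workbench, and the deposited counts are whole numbers without normalization. The deposited normalized expression value is a signal that the authors scaled from these counts, in effect by 1 constant per library. The miRBase release, mismatches and treatment of reads matching several precursors are not given in the sources used here. The table holds no coordinates, and positions were taken from GENCODE M21 and sequences from RefSeq, both on GRCm38, where all 15 named cluster entries were matched. Groups followed the labels, and all value columns were mapped.

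Counts of the 4 EV libraries were tested with edgeR 4.0.16 in R 4.3.3 (TMM, quasi-likelihood test, Benjamini-Hochberg over 354 entries whose normalized expression values averaged 10 or more, adjusted p under 0.05). The common dispersion was 0.0108, with 2 residual and infinite prior degrees of freedom. Total counts per library, which bound the precision of each value, were between 2414132 and 6092460. Shares, ratios and exact intervals were computed in Python 3.11.15 (scipy 1.17.1, pandas 2.3.3). On simulated data with 200 of 354 entries changed 2-fold, 163 were recovered with the right sign beside 3 false calls, and data without any change gave 0 calls. The simulated counts had the common dispersion of the fit for every entry in both groups. This check thus covers neither the unequal spread of the real libraries nor changes smaller than 2-fold. The libraries of a group differed beyond sampling noise, with a chi-square per degree of freedom of 93.3 for Myo-EVs and 15.9 for FFSS-Myo-EVs.

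Alternatives were library totals, median-of-ratios and deposited scaling, DESeq2 1.42.0, limma 3.58.1 with pseudocounts of 1 and 10, other filters, 1 entry per miRNA name, the replicate number as a block, and the omission of 1 EV library at a time. For ratios to cells they were CPM, median-of-ratios and TMM over 6 libraries and a geometric mean, and for shares, other denominators. The named entries are the 9 members, the 6 entries of mir-106a-363, other entries with a member's seed, the 3 entries most like each cluster sum, and marker lists. The members and lists were chosen with earlier results of these data known.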

Additional observations from a re-analysis of the deposited data

How the results depend on the processing

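The number of members called lower in FFSS-Myo-EVs, 3 by edgeR with TMM, was 2 with library totals or 1 entry per miRNA name, 1 with the deposited scaling and 0 by limma with a pseudocount of 1 or 10, and between 0 and 4 with 1 EV library left out, the 0 arising without either FFSS-Myo-EV library, where 1 library stands for the group and the log2 fold changes were still -0.60 and -0.70 for mir-18a and -0.49 and -0.42 for mir-106b. The number called higher was 0, and between 0 and 1 with 1 library left out. Over all entries, 108 were called, and between 44 and 132 with 1 library left out, with 44 and 45 without the first and the second FFSS-Myo-EV library. The replicate block, for which no source says that equal numbers belong together and whose deviations correlated at 0.204 in the check, gave 3 members called lower and 110 entries called.

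The log2 fold change of mir-17, -0.02, was 0.063 with library totals, 0.11 with the deposited scaling, 0.0075 by DESeq2, 0.10 by limma with either pseudocount, 0.025 with a mean of at least 100, 0.044 with 1 entry per miRNA name, and between -0.036 and 0.045 with 1 library left out. That of mir-19a was between -0.52 and 0.31 with 1 library left out, with 0.31 without the first Myo-EV library. Over 14 alternatives the adjusted p was between 0.00229 and 0.216 for mir-18a, between 8.31e-06 and 0.242 for mir-106b and between 0.00465 and 0.578 for mir-25.

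The EV to BM ratio of the mir-17-92 sum, 1.25, was 1.03 with CPM, 1.14 with median-of-ratios and 0.964 with TMM, and its EV to OB ratio, 3.31, was 2.61 and 2.39 with the last 2. For mir-106b-25 the EV to BM ratio, 0.762, was 0.629, 0.701 and 0.590, and the EV to OB ratio, 1.16, was 0.914 and 0.838. The cause of these differences was not tested. The numbers of shares at least 2 times lower (2) and higher (0) in EVs did not move under the alternatives run. Added after the values were seen, the range of mir-17-92 mates without mir-19b-1 was 0.967 for BM and 0.682 for OB. The filter at a mean of 100 gave no value for mir-19a and mir-19b-1, nor did 1 entry per name for mir-19b-1. The EV counts of mir-19b-1, 11 to 38 reads, limit its precision, and single cell libraries allow no test between cells and vesicles.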
